A study of Homo sapiens with 6 samples.

Results

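The 9 genes described here are ELAPOR1, C7, CD160, EML5, VSIG10L2, FOXN3, GRK3, YPEL1 and LRRC20. They were chosen from these same peak lists because called R-loop peaks added up to a long stretch of each gene in cells carrying the hairpin shT2 and to less, or none, in cells carrying the hairpin shNC3. They are 9 of the 19974 protein-coding genes in the gene table and 9 of the 11771 that had a peak in at least 3 of the 6 samples and were tested. The contrast between the hairpins chose these genes, so its values at them are given as a description, with no test. YPEL1 goes furthest against the reason for its choice, since a mean of 9.54 kb of its window was covered in shNC3 as well.

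R-loops had been mapped by DNA-RNA immunoprecipitation sequencing (DRIP-seq) in SH-SY5Y cells, a neuroblastoma line, with the S9.6 antibody, which binds DNA-RNA hybrids. Both groups received a pLVX-U6 lentivirus with a hairpin RNA, were selected with 2 µg/mL puromycin for 2 weeks and were kept in 1 µg/mL puromycin. The groups were shT2 (3 samples) and shNC3 (3 samples), in a series on stable loss of TDP-43, and only the names of the hairpins mark shT2 as the one against TDP-43 and shNC3 as the control hairpin. The labels do not state whether samples with the same hairpin were infected separately, so a p-value here speaks of the spread among these 6 samples, and that spread may be technical.

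An R-loop is a stretch where RNA stays paired with its template DNA strand and leaves the complementary DNA strand unpaired. R-loops form during transcription, often near gene starts and ends and where the unpaired strand is rich in G, and are removed by RNase H enzymes and helicases. TDP-43, encoded by TARDBP, is an RNA-binding protein that is lost from the nucleus in amyotrophic lateral sclerosis and frontotemporal dementia.

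The shT2 samples held 49068 to 50971 peaks, and the shNC3 samples 42717 to 45390. The shT2 libraries were deeper, with 3.08 to 3.46 fragments per base against 1.65 to 1.79 in shNC3, a ratio of means of 1.9. At TARDBP, peaks spanned an unscaled 9702, 9573 and 7819 bp in shT2, against 11725, 10554 and 10239 bp in shNC3, a log2 difference of -0.40 (limma adjusted p = 0.00683). A peak over TARDBP is no measure of its RNA or protein, so it does not check the knockdown. Of 10 noradrenergic neuroblastoma marker genes, 9 carried peaks in all 6 samples, TH carried none, and their summed length under peaks, scaled to the same total per sample, was 87.1 to 96.5 kb in shT2 and 74.7 to 82.7 kb in shNC3. Of 6 mesenchymal marker genes, PRRX1, YAP1 and SNAI2 had no peak in shT2, SNAI2 had none in shNC3 either, and the scaled sums were 7.96 to 9.18 kb in shT2 and 27.9 to 30.8 kb in shNC3. Most of that gap was COL1A1, with a mean of 0.216 kb in shT2 and 14.3 kb in shNC3, while VIM (log2 difference -0.15, adjusted p = 0.125) and FN1 (-0.58, adjusted p = 0.0721) did not pass. The part of depth or of these marker genes in the results at the 9 genes was not tested, apart from the equal-depth values given with them. In pooled cells, more cells with an R-loop at a site and more R-loops per cell cannot be told apart.

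Sequences are shown for 3 gene starts that the peaks treat differently, and for 1 peak border, since the nucleic acids were cut with 5 restriction enzymes before the pulldown. RefSeq promoter windows (GRCh38.p14, 250 bases before to 50 bases after a start, read 5′ to 3′ on the strand of the gene) were available for 6 of the 9 genes. The ELAPOR1 window, chr1:109113865-109114164 on the + strand, lay under a peak over all 300 bases in 3 of 3 shT2 samples and over none in shNC3. The VSIG10L2 window, chr11:125945794-125946093 on the + strand, was covered over 300 bases in each shT2 sample and over 0, 227 and 0 bases in the shNC3 samples. The FOXN3 window, chr14:89619116-89619415 on the - strand, was covered in no sample. Capitals in these 3 mark runs of 4 or more G (GGGG), a simple measure of G-rich stretches on the strand shown. The fourth sequence, chr1:109112809-109112838 on the - strand, spans the border at 109112822 where the first ELAPOR1 peak began in all 3 shT2 samples, and its capitals mark the EcoRI site GAATTC.
ELAPOR1 promoter: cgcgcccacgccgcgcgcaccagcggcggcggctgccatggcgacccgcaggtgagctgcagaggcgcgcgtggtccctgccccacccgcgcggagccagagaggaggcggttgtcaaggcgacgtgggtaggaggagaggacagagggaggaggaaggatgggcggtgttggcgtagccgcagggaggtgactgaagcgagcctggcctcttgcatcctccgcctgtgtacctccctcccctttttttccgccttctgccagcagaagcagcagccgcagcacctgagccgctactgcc
VSIG10L2 promoter: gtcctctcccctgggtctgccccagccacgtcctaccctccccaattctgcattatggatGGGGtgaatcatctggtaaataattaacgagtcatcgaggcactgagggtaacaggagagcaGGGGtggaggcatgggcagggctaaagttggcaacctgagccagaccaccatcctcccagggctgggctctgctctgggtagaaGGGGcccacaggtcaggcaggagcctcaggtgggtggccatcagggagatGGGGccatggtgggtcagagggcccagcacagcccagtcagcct
FOXN3 promoter: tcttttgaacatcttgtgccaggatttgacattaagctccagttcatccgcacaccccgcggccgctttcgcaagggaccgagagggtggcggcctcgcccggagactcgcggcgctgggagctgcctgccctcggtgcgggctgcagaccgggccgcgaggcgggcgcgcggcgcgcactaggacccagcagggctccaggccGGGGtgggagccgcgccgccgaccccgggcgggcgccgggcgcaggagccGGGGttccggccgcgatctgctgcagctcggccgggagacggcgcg
ELAPOR1 peak border: cctcctctgaggGAATTCctctgtcataga

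Base content was computed for each window. The ELAPOR1 window held 69.3% G or C with 0 GGGG runs and 2 CCCC runs, the VSIG10L2 window 61% with 4 GGGG and 3 CCCC runs, and the uncovered FOXN3 window 74.3% with 2 of each. GGGG stood in 75.1% and CCCC, its form on the other strand, in 73.7% of all 34961 windows, whose median G or C content was 58.7%. The windows of C7, with 44.3% G or C, and CD160, with 43.7%, lay under no peak in any sample. Each held 1 GGGG run. Their excess of G over C on the strand of the gene, as a fraction of G plus C, was 0.16 and 0.22. It was 0.06 at the ELAPOR1 window, 0.09 at VSIG10L2 and 0.07 at FOXN3, with a median of 0.01 over all windows. The second listed start of VSIG10L2, chr11:125951539-125951838, had 48.3% G or C and was covered over 300 bases in each shT2 sample and over none in shNC3. The second of ELAPOR1, chr1:109186299-109186598, had 48.3% G or C and was covered over 94 bases in shT2 replicate 1 alone. LRRC20 has 3 listed starts, whose windows were covered over 264 bases in shNC3 replicate 3, over 217 bases in shNC3 replicate 2 and over 187 bases in shT2 replicate 1, and in no other sample.

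Covered length is the length of a gene, with 2 kb added on each side, that lay under called peaks, after each sample was brought to the same total covered length, and every ± is an SD over the 3 samples of a hairpin. The 9 genes lie on 6 chromosomes. Of the 9, limma called 9 longer in shT2, against 24.2% of all tested genes, and 9 had their lowest shT2 sample above their highest shNC3 sample, against 27.6% of tested genes. The choice of genes fixed both counts, so nothing is read from them. Peaks in 3 of 3 shT2 and 0 of 3 shNC3 samples were found at 3 of them, ELAPOR1, C7 and CD160, against 2.82% of tested genes, and those 3 passed the filter on covered samples through shT2 alone. The median log2 difference was 3.70 over the 9 genes, 3.18 over the 6 with a shNC3 peak and -0.08 over all tested genes, on the scale log2(scaled bp + 500), which understates the change of short coverage.

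**Figure D1:**
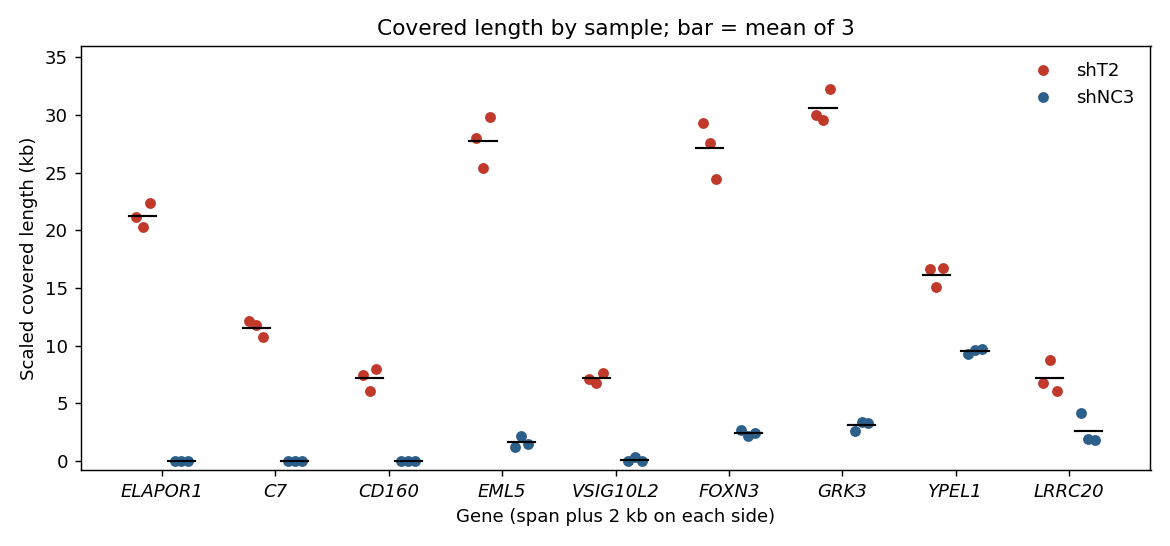
Scaled covered length in kb (vertical axis) at each of the 9 genes in the 3 shT2 samples (red, left of each pair) and the 3 shNC3 samples (blue, right). Each point is a sample and each bar the mean of 3. ELAPOR1, C7 and CD160 are at 0 in every shNC3 sample, while YPEL1 averages 9.54 kb there.

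The order of covered lengths in shT2 ran from GRK3 at 30.6 ± 1.4 kb, through EML5 at 27.7 ± 2.2 and FOXN3 at 27.1 ± 2.5, to VSIG10L2 and CD160 at 7.18 ± 0.42 and 7.18 ± 0.97 kb (SD, n = 3 each). The samples of EML5 overlapped those of GRK3 and of FOXN3, as did those of LRRC20, VSIG10L2 and CD160 at the short end. Length per gene differs, so the share of the window under peaks ordered them otherwise. It was 52.9% at VSIG10L2, 40.2% at YPEL1 and 31.7% at CD160, and only 6.12% at FOXN3, the longest of the 9.

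ELAPOR1 encodes a transmembrane protein of endosomes and lysosomes that was first known as an oestrogen-induced gene. It lies on chromosome 1, 109114115 to 109206781, and was covered over 21.2, 20.3 and 22.4 kb in the shT2 samples, against 0 kb in each shNC3 sample. The totals of the 3 shT2 samples were close, but 33.1% of the bases covered in any of them were covered in 3 of 3, against 60.3% over the whole genome. No fold is given against 0. Its 34 merged regions, each a run of overlapping peaks of any sample, were spread from the start to the end of the gene, and 14 of them were present in 3 of 3 shT2 samples. The strongest, 109112822 to 109115087, was 2266 bp long to the base in each shT2 sample, with 77, 87 and 72 fragments at its summit. Its fold enrichment, the value the authors' peak caller gave at the summit, was 14.2, 19.1 and 14.3. This region lay over the gap between ELAPOR1 and CFAP276, a gene of ciliary microtubules whose listed starts face the other way, and so belonged to both. A second region, 109131744 to 109134513, had the same 2770 bp in all 3 shT2 samples, from 17.6 to 20.4 kb inside the gene. The 20 regions of ELAPOR1 that only 1 or 2 shT2 samples held were mostly short, such as 109186505 to 109186799, 295 bp in shT2 replicate 1 alone.

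C7 encodes a terminal complement protein that joins the membrane attack complex. On chromosome 5, at 40909497 to 40984643, it was covered over 12.2, 11.8 and 10.7 kb in the shT2 samples, against 0 kb in each shNC3 sample. Coverage began only past its start. Of the 5 regions in all shT2 samples, the first, 40910971 to 40912912, lay from 1.5 kb inside the gene, and the next was 40920213 to 40924612, with 3097, 4031 and 3462 bp covered. Another, 40940173 to 40943630, had 2688, 3458 and 2540 bp covered, and the last pair lay near the 3′ end, at 40980518 to 40982137 and at 40982493 to 40983819. The last region was 1327 bp long in all 3 shT2 samples. Summit fold was 8.10 at most over the gene, below the ELAPOR1 start.

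CD160 encodes a surface receptor of natural killer and T cells that binds the TNF receptor family member TNFRSF14. Peaks over it (chromosome 1, 145719499 to 145739288) spanned 7.42, 6.11 and 8.00 kb in the shT2 samples, against 0 kb in each shNC3 sample. No peak lay in its first 8.4 kb. The main region, 145728818 to 145733470, spanned 4088, 4301 and 4454 bp in shT2. Of the other 4 regions in all shT2 samples, 3 lay at the 3′ end, where the gene meets RNF115, a ubiquitin ligase gene, and were shared with it. Those shared bases numbered 2449, 2029 and 2318 in the shT2 samples and 0 in each shNC3 sample.

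VSIG10L2 encodes a predicted protein of the immunoglobulin superfamily. On chromosome 11, at 125946044 to 125956319, it was covered over 7.09, 6.80 and 7.63 kb in the shT2 samples, against 0, 0.330 and 0 kb in the shNC3 samples. The only shNC3 peak was 292 bp long, in replicate 2, with 11 fragments at its summit. It lay inside the region 125945152 to 125949125, which was 3974 bp long to the base in each shT2 sample and ran over the start of the gene. Further in, 125951144 to 125952326 and 125952693 to 125955164 were present in 3 of 3 shT2 and 0 of 3 shNC3 samples.

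**Figure D2:**
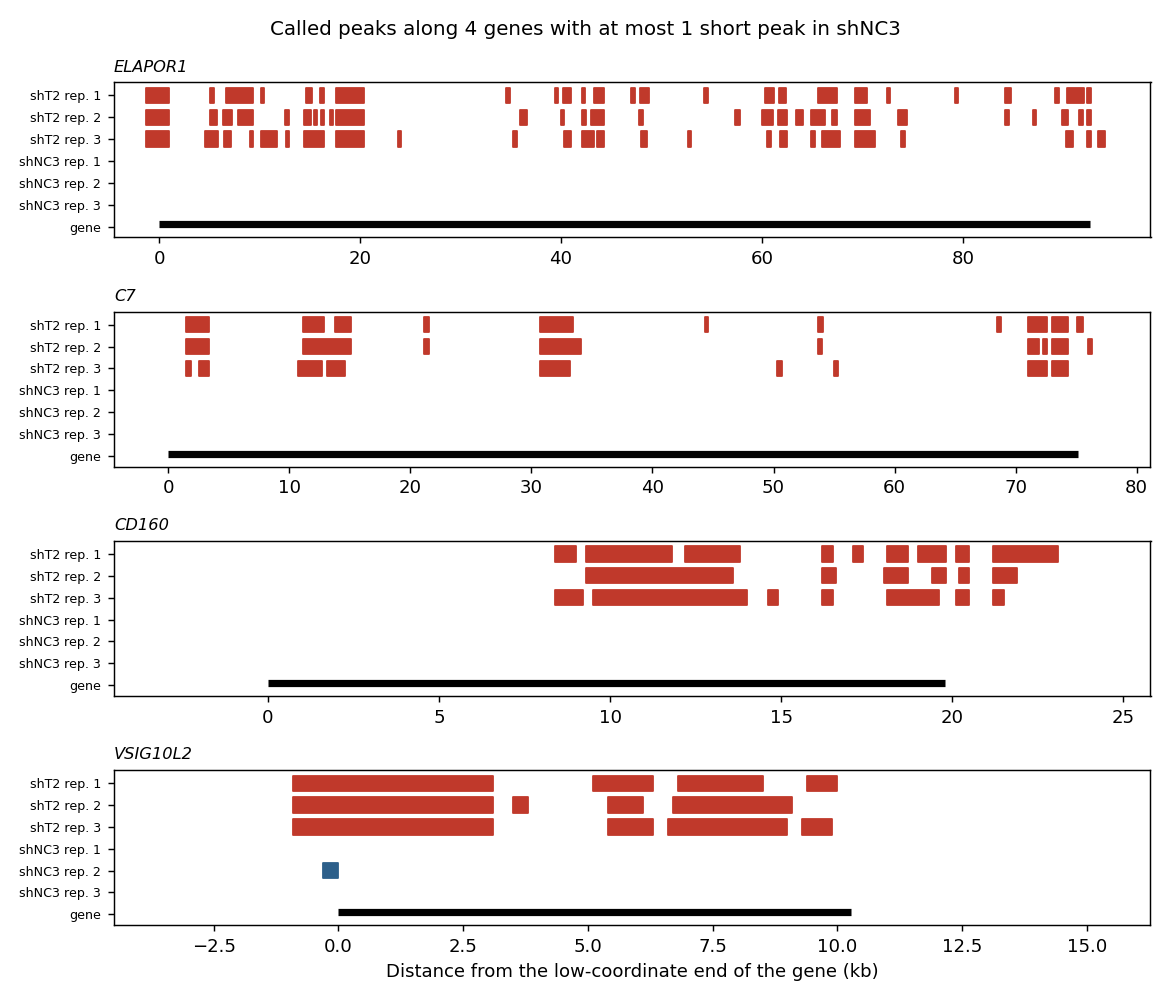
Called peaks along ELAPOR1, C7, CD160 and VSIG10L2, as distance in kb from the low-coordinate end of the gene (horizontal axis), with 1 row for each shT2 sample (red, above) and each shNC3 sample (blue, beneath) and the gene as a black bar. The shNC3 rows are empty except for 1 peak of 292 bp at VSIG10L2, and the shT2 rows of ELAPOR1 run from its start to its end.

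EML5 encodes a microtubule-binding protein of the echinoderm microtubule-associated protein-like family. It lies on chromosome 14, 88612431 to 88792953, and was covered over 28.0, 25.4 and 29.8 kb in the shT2 samples, against 1.25, 2.14 and 1.51 kb in the shNC3 samples. The mean was 27.7 ± 2.2 kb in shT2, against 1.63 ± 0.45 kb in shNC3 (SD, n = 3 each), a log2 difference of 3.75. All but 299 bp of the shNC3 coverage lay at the high-coordinate end. There the region 88791161 to 88794674 was present in all 6 samples, over 3514, 3209 and 3024 bp in shT2 and 1243, 1593 and 1446 bp in shNC3. The strongest shT2 peaks ended 9.1 and 17 kb short of that end and hardly appeared in shNC3. The region 88771883 to 88775991 had a fold of 18.8, 14.8 and 12.3 in shT2, and 299 bp of it were called in shNC3 replicate 2. The region 88778816 to 88783832 had a fold of 15.2, 15.9 and 12.2 in shT2 and no shNC3 peak. In the middle of the gene, 88735912 to 88737711 was 1800 bp long in each shT2 sample. The low-coordinate end lay over ZC3H14, a gene of a poly(A)-binding zinc finger protein, and 2523, 3241 and 3171 bp of shT2 coverage there belonged to both genes.

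FOXN3 encodes a forkhead transcription factor that mostly represses its targets. The gene runs from 89156177 to 89619165 on chromosome 14, and peaks spanned 29.3, 27.6 and 24.4 kb in the shT2 samples, against 2.71, 2.17 and 2.41 kb in the shNC3 samples. The mean was 27.1 ± 2.5 kb in shT2, against 2.43 ± 0.27 kb in shNC3 (SD, n = 3 each), a log2 difference of 3.24. The site with the highest summit was common to both hairpins. It was the region 89415959 to 89418317 over the lncRNA FOXN3-AS1, with 2055, 2359 and 2069 bp in shT2 and 1981, 1919 and 1572 bp in shNC3. Its fold was 22.0, 19.1 and 24.2 in shT2 and 11.5, 10.6 and 9.5 in shNC3, but fold depends on library depth. As multiples of the mean fragments per base of each library, its highest summits were 29, 25.2 and 31.9 in shT2. In shNC3 these multiples were 17.3, 20 and 18.4. The longer coverage in shT2 came from many lower peaks, 38, 42 and 35 of them per sample against 4, 2 and 4 in shNC3. Of its 57 regions, 39 were held by 1 or 2 shT2 samples and no shNC3 sample, and 28.4% of all bases covered in any shT2 sample were covered in 3 of 3. The longest region was 89398176 to 89402449, over 3498, 3871 and 3112 bp in shT2, with 306 bp in shNC3 replicate 3.

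GRK3 encodes a kinase that phosphorylates activated G protein-coupled receptors and so turns their signal down. On chromosome 22, at 25564675 to 25729294, peaks spanned 30.0, 29.6 and 32.2 kb in the shT2 samples, against 2.58, 3.42 and 3.32 kb in the shNC3 samples. The mean was 30.6 ± 1.4 kb in shT2, against 3.10 ± 0.46 kb in shNC3 (SD, n = 3 each), a log2 difference of 3.12. Both hairpins had peaks at the low-coordinate end, in the region 25561203 to 25566175, which starts 3.5 kb outside the gene and is shared with the lncRNA GRK3-AS1. Over the whole region, peaks spanned 3484, 3719 and 4364 bp in shT2 and 1932, 1437 and 2732 bp in shNC3. Both also had peaks in 25706517 to 25709516, which was 3000 bp long in each shT2 sample and covered over 289, 538 and 777 bp in shNC3. Between this site and the high-coordinate end only shT2 had peaks. The longest there was 25715670 to 25720840, over 5171, 4837 and 4587 bp. The highest was 25725558 to 25727956, with a fold of 18.2, 14.3 and 11.4.

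YPEL1 encodes a member of the Yippee-like zinc-binding proteins. It lies on chromosome 22, 21697536 to 21735794, and was covered over 16.7, 15.1 and 16.7 kb in the shT2 samples, against 9.31, 9.62 and 9.69 kb in the shNC3 samples. The mean was 16.2 ± 0.94 kb in shT2, against 9.54 ± 0.20 kb in shNC3 (SD, n = 3 each), a log2 difference of 0.73, the smallest of the 9. Long coverage common to both hairpins lay at and beyond its low-coordinate end. The region 21689953 to 21700695 was shared with PPIL2, a cyclophilin-type ubiquitin ligase gene. It starts 7.6 kb outside YPEL1, so part of it lies beyond the added 2 kb and is not counted in the covered lengths above. Over the whole region, peaks spanned 10520, 10178 and 10018 bp in shT2 and 9499, 9462 and 9795 bp in shNC3. The region 21702995 to 21707108 was covered over 4114 bp in 5 of the 6 samples and over 3678 bp in shNC3 replicate 3. The difference at YPEL1 came mainly from 1 region at the other end, 21728752 to 21735506, with 6423, 6755 and 6387 bp in shT2 and not called in shNC3.

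LRRC20 encodes a protein with leucine-rich repeats. Its span is 70298975 to 70382625 on chromosome 10, on the - strand, and peaks took up 6.75, 8.77 and 6.06 kb in the shT2 samples, against 4.16, 1.88 and 1.86 kb in the shNC3 samples. The mean was 7.19 ± 1.4 kb in shT2, against 2.63 ± 1.3 kb in shNC3 (SD, n = 3 each), a log2 difference of 1.36. The groups did not overlap, but shNC3 replicate 1 stood above the other shNC3 samples, and without it the difference was 1.68. The region 70296274 to 70302330 at the 3′ end starts 2.7 kb outside the gene. Over the whole region, peaks spanned 4939, 5483 and 4597 bp in shT2 and 0 bp in shNC3. Elsewhere LRRC20 had short peaks of both hairpins, and 6 of its 15 regions were present in shNC3 alone. Of the bases covered in any shNC3 sample at LRRC20, 3234 lay outside all shT2 peaks.

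**Figure D3:**
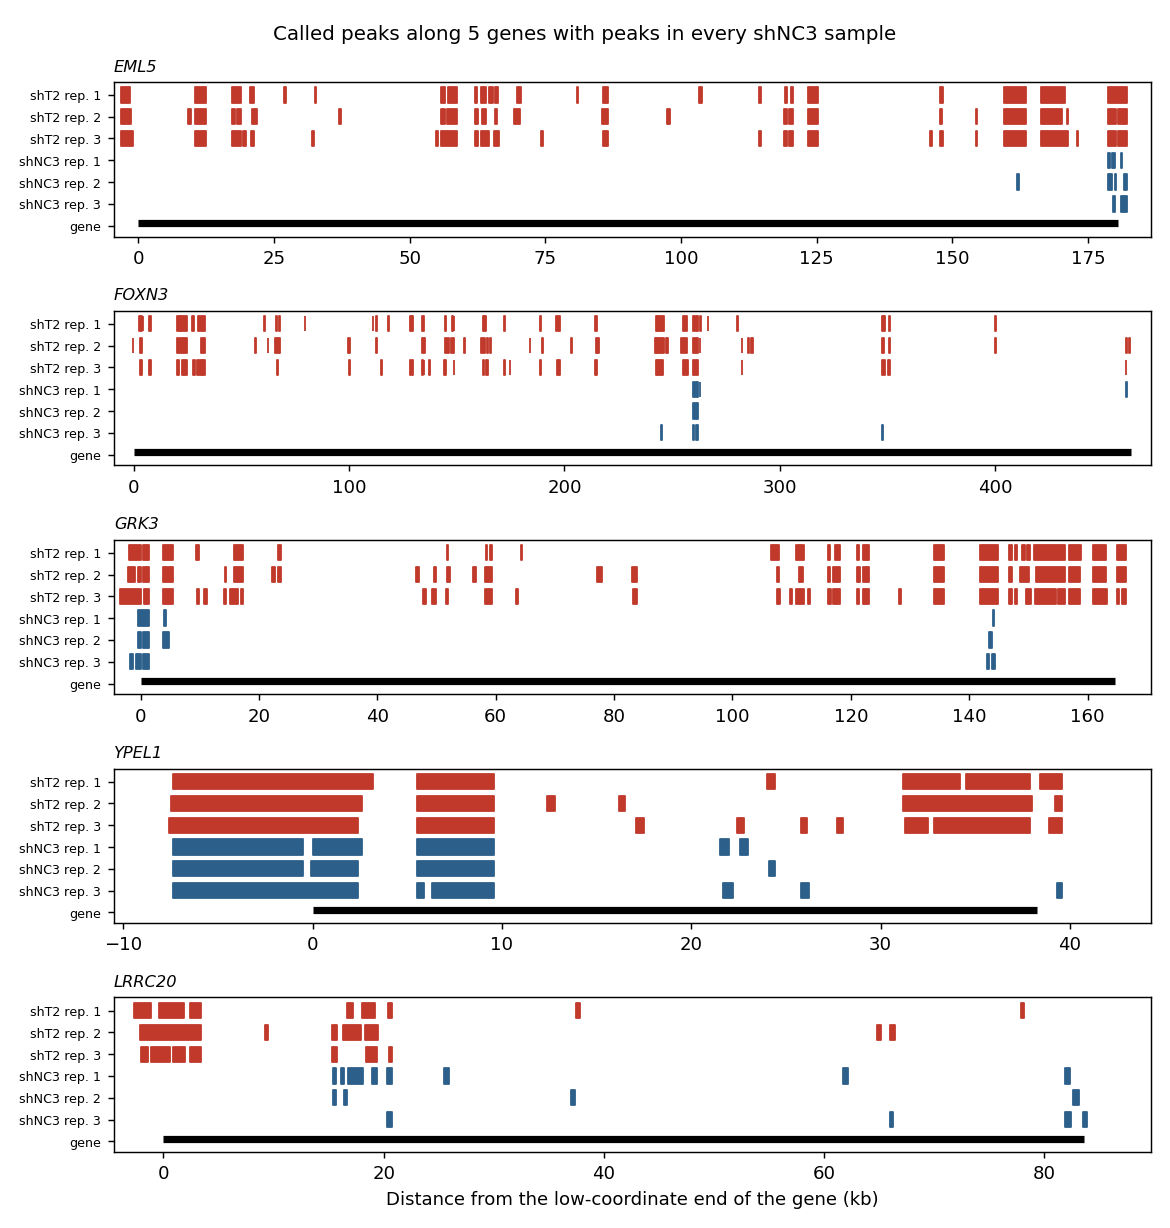
Called peaks along EML5, FOXN3, GRK3, YPEL1 and LRRC20, as distance in kb from the low-coordinate end of the gene (horizontal axis), with 1 row for each shT2 sample (red, above) and each shNC3 sample (blue, beneath) and the gene as a black bar. Sites common to both hairpins sit at the high-coordinate end of EML5, inside FOXN3, near both ends of GRK3 and at the low-coordinate end of YPEL1.

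In all, 213 merged regions met the 9 genes. Of these, 71 were present in 3 of 3 shT2 and 0 of 3 shNC3 samples, 6 in all 6 samples, 114 in 1 or 2 shT2 samples and no shNC3 sample, 7 in shNC3 alone, and 15 in another mix. Genome-wide, 5.87% of 75758 merged regions were present in 3 of 3 shT2 and 0 of 3 shNC3 samples. The choice of genes favoured such regions, so nothing is read from this difference. The 71 were unevenly shared, with 16 at GRK3, 14 each at ELAPOR1 and EML5, 13 at FOXN3, 5 each at C7 and CD160, 2 at VSIG10L2 and 1 each at YPEL1 and LRRC20.

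At 8 of the 9 genes most bases covered in shT2 lay away from the gene ends, as they did at the median tested gene. Windows of 2 kb on either side of both gene ends held 1.34% of the shT2 coverage at FOXN3, 13.6% at EML5, 14.9% at GRK3, 15.8% at C7, 16.1% at ELAPOR1 and 29.9% at CD160. They held 38.2% at YPEL1, 46.4% at LRRC20 and 50.8% at VSIG10L2. The median share was 42.3% over the 9268 tested genes of at least 8 kb with a shT2 peak. These windows hold at most 8 kb, so a gene chosen for longer coverage has a limited share there.

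Peak heights at the 9 genes were close to those of all shT2 peaks. The 462 shT2 peaks had a median summit of 7.4 times the mean depth of their library, against 7.6 for all shT2 peaks, and a median fold of 4.9 against 5. The 63 shNC3 peaks at these genes came from the shallower libraries, where a summit over the general background had to reach 4.47 to 4.84 times the depth to be called, against 3.76 to 3.93 in shT2. Of the 462 shT2 peaks, 33 had a summit below 4.84 times the depth. When each summit was recomputed at 1.65 fragments per base, 410 of the 462 (88.7%) still passed, against 85.2 to 89.7% of all peaks of each shT2 sample. At that depth ELAPOR1 had 20.2 ± 2.3 kb in shT2 and 0 kb in shNC3, EML5 26.9 ± 2.6 and 1.60 ± 0.44 kb, and FOXN3, where it moved the shT2 mean most, 24.4 ± 2.3 and 2.38 ± 0.28 kb (SD, n = 3 each).

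**Figure D4:**
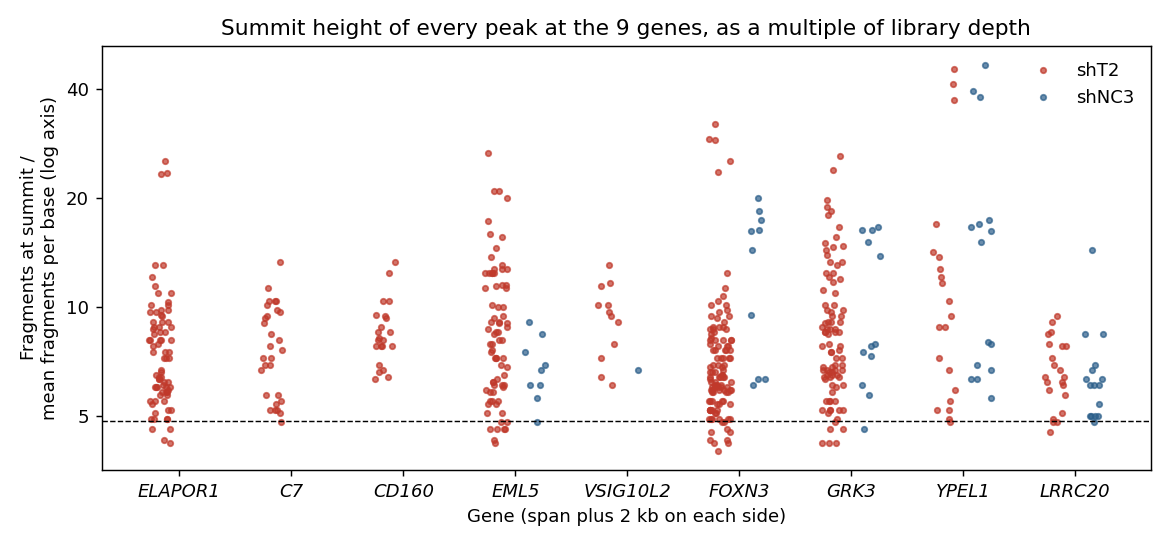
Height of every peak summit at the 9 genes, as fragments at the summit over the mean fragments per base of its library (log axis), for shT2 (red, left) and shNC3 (blue, right). The dashed line is 4.84 times the depth, the highest of the 3 lowest values callable over general background in shNC3. Of the 462 shT2 points, 33 lie under it.

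Many peaks ended at the same base in several samples. Of the 911 shT2 peak borders at the 9 genes, 298 (32.7%) recurred to the base in at least 2 shT2 samples, close to the 32.8% of all 301720 shT2 borders, and the share ran from 12.2% at LRRC20 to 46.6% at C7. The EcoRI site at the start of the first ELAPOR1 peak is an example. In the promoter windows, where sequence was at hand, 687 of 734 borders that recurred in at least 2 samples (93.6%) lay within 5 bp of a site of 1 of the 5 enzymes, and so did 197 of 197 borders common to all 6. For borders of a single sample the figure was 273 of 8505 (3.21%), against 1.57% of all positions in these windows. Identical widths, such as 3974 bp at VSIG10L2, are widths of called peaks and were not read as a measure of how far an R-loop reached. Cut sites outside promoter windows were not mapped, so the borders of that VSIG10L2 peak were not checked.

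The 100 kb around each gene did not carry the same difference on every side. Within 100 kb of ELAPOR1, covered length was 11.3 ± 1.3 kb in shT2 and 12.4 ± 0.28 kb in shNC3 on the low side, with overlapping samples, and 19.0 ± 1.4 and 22.8 ± 1.2 kb on the high side, where every shT2 sample was lower (SD, n = 3 each). FOXN3 had no peak of either hairpin within 100 kb on either side, so its coverage stopped with the gene. CD160 had none on its low side, and on its high side 12.7 ± 1.2 kb in shT2 and 10.7 ± 0.76 kb in shNC3.

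EML5 and GRK3 had longer coverage in shT2 on both sides of the gene, and C7 on 1 side. The flanks of EML5 had 8.24 ± 1.1 kb in shT2 and 4.53 ± 0.72 kb in shNC3 on the low side, and 8.18 ± 1.1 and 2.80 ± 0.56 kb on the high side. GRK3 had 1.82 ± 0.49 and 0.571 ± 0.34 kb on the low side, and 4.65 ± 0.61 and 0.812 ± 0.048 kb on the high side, where the shT2 coverage was mostly 1 region, 25732659 to 25737434, which starts 3.37 kb past the gene. C7 had 2.68 ± 0.18 kb in shT2 and 0 kb in shNC3 on its high side, all in the region 40991038 to 40993998, and 8.40 ± 0.24 kb in shT2, against 7.73 ± 0.87 kb in shNC3, on its low side, where the samples overlapped. The high side was also longer in shT2 at LRRC20, with 9.81 ± 1.5 kb, against 6.48 ± 0.28 kb in shNC3, and at VSIG10L2, with 1.13 ± 0.51 kb, against 0 kb. Their low sides overlapped, with 0.380 ± 0.28 kb in shT2, against 0.233 ± 0.40 kb in shNC3, at LRRC20 and 0.550 ± 0.28 kb, against 0.805 ± 0.46 kb, at VSIG10L2. YPEL1 had 52.9 ± 1.3 kb in shT2 on its low side, against 57.0 ± 2.1 kb in shNC3, and 7.43 ± 1.4 kb, against 7.16 ± 2.1 kb, on its high side. No test was made of these flanks. They hold peaks of neighbouring genes given below, such as ZC3H14 and TTC8 beside EML5 and EIF4EBP2 beside LRRC20. Values of such a flank and of its genes therefore count the same peaks.

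**Figure D5:**
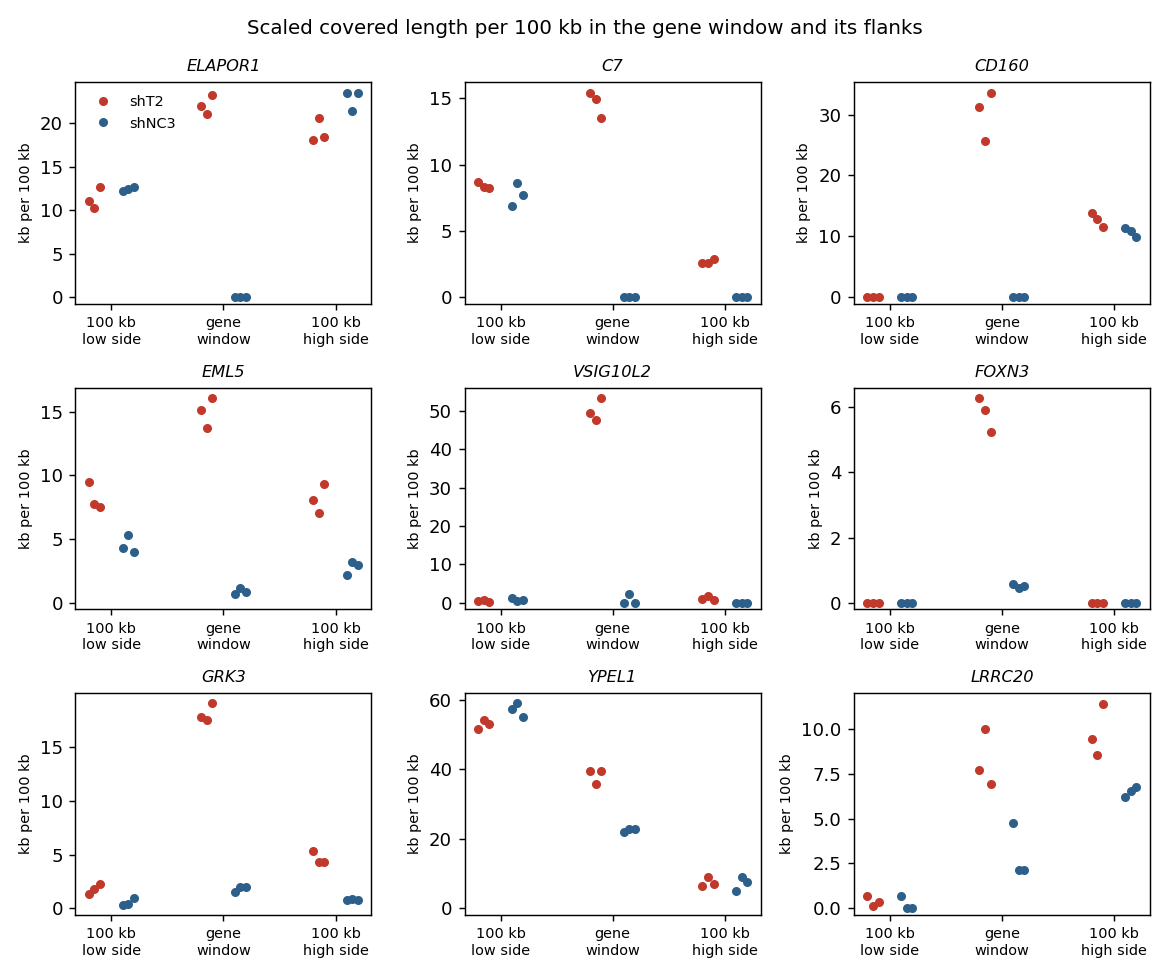
Scaled covered length per 100 kb (vertical axis, a scale of its own in each panel) in the window of each gene and in the 100 kb on its low- and high-coordinate sides, for the 3 shT2 samples (red, left) and the 3 shNC3 samples (blue, right). In the gene window every shT2 point is above every shNC3 point, while in the flanks of ELAPOR1 and YPEL1 the samples overlap or shT2 is lower.

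The nearest protein-coding genes that share no base with the 9 windows were tested in the fit over all genes, since the choice of the 9 did not use them. There were 17, of which 10 had enough peaks to test, and the other 7 (CARD6, MROH2B, PDZK1, DDX25, LOC105369591, CRYBB2 and NPFFR1) had no peak in any sample. Of the 10, 3 rose in shT2 (24.2% of all tested genes did), 1 fell (27.2% of all tested genes did) and 6 did not pass, and their median log2 difference was -0.11, against -0.08 over all tested genes. TTC8, which encodes a subunit of the ciliary BBSome and lies between EML5 and FOXN3, had 6.33 ± 0.69 kb in shT2 and 2.80 ± 0.56 kb in shNC3, a log2 difference of 1.06 (adjusted p = 0.00114). EIF4EBP2, next to LRRC20, which encodes a repressor of translation initiation, had 8.16 ± 1.6 and 5.18 ± 0.26 kb, a log2 difference of 0.59 (adjusted p = 0.00753). POLR3C, a subunit gene of RNA polymerase III past RNF115, had 13.4 ± 0.80 and 10.9 ± 0.80 kb, a log2 difference of 0.28 (adjusted p = 0.0151) that did not pass without shT2 replicate 1 (adjusted p = 0.0565). SDF2L1, a gene of an endoplasmic reticulum protein near YPEL1, had 2.68 ± 0.30 and 3.80 ± 0.50 kb, a log2 difference of -0.43 (adjusted p = 0.0330), which did not pass without shT2 replicate 1 or 3 or shNC3 replicate 1 or 3 (adjusted p = 0.0665 to 0.0946). Those that did not pass included TMEM167B (-0.43), SARS1 (-0.13), LOC124903405 (0.15), EFCAB11 (-0.53) and MYO18B (-0.41), all as log2 differences.

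Genes that overlap the windows share peaks with the 9 and are described without a test. ZC3H14, at the low-coordinate end of EML5, had 9.19 ± 0.18 kb in shT2, against 1.15 ± 0.61 kb in shNC3, and 6.36 ± 0.52 and 1.15 ± 0.61 kb outside the EML5 window. RNF115 had 7.18 ± 1.3 and 4.82 ± 0.17 kb, but 5.02 ± 1.4 and 4.82 ± 0.17 kb outside the CD160 window, so its difference lay mostly in the bases shared with CD160. CFAP276 had 4.65 ± 0.29 and 1.44 ± 0.18 kb, and 2.50 ± 0.31 and 1.44 ± 0.18 kb outside the ELAPOR1 window. CDON, a gene of a Hedgehog co-receptor next to VSIG10L2, had 3.39 ± 0.25 and 1.67 ± 0.024 kb. PPIL2 had 29.2 ± 0.20 kb in shT2 and 28.6 ± 1.7 kb in shNC3, close to equal. Of the lncRNAs inside FOXN3, FOXN3-AS1 had 2.29 ± 0.23 and 2.05 ± 0.36 kb, FOXN3-AS3 had 0.988 ± 0.60 kb in shT2, against 0 kb in shNC3, and FOXN3-AS2 and LOC107984635 had no peak. LOC105370617, just past the FOXN3 start, had 0.142 ± 0.25 and 0.00503 ± 0.0087 kb, and GRK3-AS1 had 3.67 ± 0.52 and 2.14 ± 0.64 kb.

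Relatives of the 9 genes, by family or pathway, moved in both directions. The list held 34 genes, 22 were tested, and 10 had no peak in any sample. Of the 22, 6 rose (24.2% of all tested genes did), 6 fell (27.2% did) and 10 did not pass, with a median log2 difference of -0.11, against -0.08 over all tested genes. ELAPOR2, the paralog of ELAPOR1, rose to 4.45 ± 0.15 kb in shT2, against 0.386 ± 0.34 kb in shNC3 (log2 difference 2.57, adjusted p = 0.000626). No sample had a peak at C6, C8A, C8B or C9, which encode other terminal complement proteins. The same held for TNFRSF14, whose protein CD160 binds, and for BTLA and TNFSF14, which were listed with it. C8G, which encodes a chain of complement component 8, fell (log2 difference -0.45, adjusted p = 0.0146), and C5 did not pass (0.15, adjusted p = 0.676).

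Among the microtubule-binding EML genes, EML6 rose to 3.91 ± 0.15 kb in shT2, against 0.277 ± 0.48 kb in shNC3 (log2 difference 2.67, adjusted p = 0.00131). EML4 rose by 1.10 (adjusted p = 0.00261) and EML2 by 0.32 (adjusted p = 0.0467) on the log2 scale, while EML3 fell (-0.37, adjusted p = 0.00629) and EML1 did not pass (-0.24, adjusted p = 0.453). EML4 did not pass at equal depth (adjusted p = 0.0501), and with only peaks of a fold of at least 5 its difference was -0.09. EML2 did not pass when any of the 3 shT2 samples or shNC3 replicate 2 or 3 was left out (adjusted p = 0.0518 to 0.145), and EML1 passed without shNC3 replicate 2 (-0.54, adjusted p = 0.0223).

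Among the receptor kinases, GRK5 rose to 11.7 ± 0.47 kb in shT2, against 4.12 ± 1.00 kb in shNC3 (log2 difference 1.42, adjusted p = 0.000354). GRK6 fell (-0.31, adjusted p = 0.00438), as did GRK1 (-0.55, adjusted p = 0.0484), while GRK2 (-0.08, adjusted p = 0.227) and GRK4 (0.35, adjusted p = 0.108) did not pass. GRK7 had 286 and 319 bp in shT2 replicates 1 and 2 and no other peak. GRK1 did not pass when any sample but shNC3 replicate 1 was left out (adjusted p = 0.079 to 0.119). Among the Yippee-like genes, YPEL2 rose to 3.53 ± 0.45 kb in shT2, against 0.363 ± 0.034 kb in shNC3 (log2 difference 2.22, adjusted p = 0.000116), and YPEL3 fell (-0.40, adjusted p = 0.0323). YPEL4 (-0.18, adjusted p = 0.0580) and YPEL5 (0.05, adjusted p = 0.801) did not pass. YPEL3 did not pass when any sample but shT2 replicate 1 was left out (adjusted p = 0.052 to 0.087), and at gene ends alone YPEL2 had a difference of -0.25 (adjusted p = 0.573).

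Among the immunoglobulin-type VSIG genes, VSIG8 fell to 0.338 ± 0.36 kb in shT2, against 5.63 ± 0.38 kb in shNC3 (log2 difference -2.96, adjusted p = 0.000328). VSIG2 (0.13), VSIG10 (-0.24) and VSIG10L (-0.27) did not pass, and VSIG1 and VSIG4 had no peak. Of the relatives of FOXN3, FOXN2 did not pass (-0.14, adjusted p = 0.478), FOXN1 had no peak, and FOXN4 had 542 bp in shT2 replicate 1 alone.

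For each of the 9 genes, the gene with the most similar covered lengths over the 6 samples was sought among 11757 genes outside the windows, by the root mean square difference in log2(scaled bp + 500). PRICKLE1 was nearest to both FOXN3, at 0.33, and EML5, at 0.39, with 24.8 kb in shT2 and 1.78 kb in shNC3. FLRT1 was nearest to both CD160, at 0.25, and C7, at 0.29, with 9.28 kb in shT2 and 0 kb in shNC3. EXOC4 was nearest to ELAPOR1, at 0.51, with 18.2 kb in shT2 and 0.202 kb in shNC3. SLC35B4 was nearest to VSIG10L2 (0.34), ST8SIA2 to GRK3 (0.41), LARP4B to YPEL1 (0.10) and POMZP3 to LRRC20 (0.20).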

How the data were processed

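S9.6 DRIP-seq was analysed for 3 shT2 and 3 shNC3 samples of SH-SY5Y, each with 1 deposited list of narrow peaks. Bowtie2 2.4.4, SAMtools, MACS2 2.2.6 and the build hg38 are named per the submitters' processing notes. The caller's control was not given in the sources used here. The deposited lists hold, per peak, an integer score, the summit fold (a linear ratio over the local background), and the −log10 p-value and −log10 q-value of the authors' peak caller. A common cut-off of fold or −log10 q was applied across lists only in the alternative settings. Fold depends on the depth of its library, so folds of the 2 hairpins are not on the same scale.

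Peaks were assigned to genes with the RefSeq table of GRCh38.p14, with 2 kb added at both ends of each gene. Covered length was scaled to the mean total, and log2(scaled bp + 500) went into limma 3.58.1 (R 4.3.3; lmFit, then robust eBayes with a trend, without covariates) for 11771 genes covered in at least 3 of 6 samples, adjusted by Benjamini-Hochberg and called at 0.05. Every adjusted p is from this fit, or from its rerun under another setting or without a sample where that is named. The fit was tested on simulated data. Summit fragments and library depth were recovered from fold and p for 99.8 to 99.9% of peaks. For values at equal depth, expected summit counts were recomputed at 1.65 fragments per base, peaks that no longer passed were dropped, and widths were kept. Other scripts ran in Python 3.11. Positions are 1-based.

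The 9 genes and the lists of relatives and markers were chosen with earlier results of these data known. The text names the 9 genes, all genes overlapping their windows, the nearest gene on each side, relatives past the threshold, and the most similar gene for each. Other relatives are named for completeness. No strand is given here for EML5, GRK3 and YPEL1. The values of 1 flanking gene are not reported here.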

Additional observations from a re-analysis of the deposited data

How the results depend on the processing

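The same peak lists chose the 9 genes, so nothing is read from the direction of their differences. The 9 genes were longer in shT2 under all 17 alternatives (153 of 153 values), with log2 differences of 0.55 to 0.89 at YPEL1, 0.48 to 3.43 at FOXN3, 1.01 to 2.96 at LRRC20 and 2.97 to 7.74 at ELAPOR1. Their median log2 difference, 3.70, was 4.04 with an offset of 100 bp, 2.68 with 2000 bp, 3.00 with only peaks of a fold of at least 5, 1.76 at gene ends alone, and 3.57 to 3.91 leaving out each sample in turn. Regions present in 3 of 3 shT2 and 0 of 3 shNC3 samples numbered 71, and 35 at a fold of at least 5. Over all tested genes, 2843 were longer and 3199 shorter in shT2. A fold of at least 5 gave 1846 longer and 1955 shorter, and gene ends alone 1572 longer. Without scaling, 3180 were longer and 2044 shorter, so 60.9% of calls were longer, against 47.1% with scaling, and the median of all genes moved by 0.14 on the log2 scale. Flanking genes that fell numbered 1, but 0 without scaling, 2 at a −log10 q of at least 5, 2 with 5 kb flanks, and 0 to 1 leaving out each sample. Relatives that rose numbered 6, and 3 at gene ends alone, and those that fell numbered 6, and 3 either without scaling or at a fold of at least 5. The direction turned for LOC124903405 with 5 kb flanks (-0.59), for ZC3H14 and YPEL2 at gene ends alone (-0.95 and -0.25) and for EML4 at a fold of at least 5 (-0.09). The cause of these moves was not tested. Same-numbered samples did not deviate together in covered length (r = -0.0163, -0.0927 and -0.00905 over 9395 genes). These values cannot show whether same-numbered samples were handled together, and the main fit used no pairing. With the replicate number as a block, 2825 genes were longer and 2866 shorter, and 0 flanking genes fell. The equal-depth setting was chosen after seeing the data. Peak lists show where signal passed a threshold, not its absence elsewhere, and the shallower shNC3 libraries limit what could be called there.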
